A study of Mus musculus with 6 samples.

Results

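The 10 genes described here carry the calcium signal of an active synapse to transcription in the nucleus: the calcium/calmodulin-dependent kinases Camk2a, Camk2b, Camk2g and Camk4, the kinase kinases Camkk1 and Camkk2, the transcription factor Creb1, and its coactivators Crebbp, Ep300 and Crtc1. They were taken by name, and every CpG site lying between 1 kb upstream of the gene start and the gene end (GENCODE M21 gene records on mm10, read along the gene's own strand) was assigned to its gene. This gave 735 of the 890041 sites in the table, in 10 of the 16108 protein-coding genes that were tested. Methylation came from reduced representation bisulfite sequencing (RRBS), which samples CpG-rich fragments, of micro-dissected dentate gyrus of female C57BL/6JRj mice aged 4.5 months. Mice lived in standard cages (STD, 3 mice) or in an enriched environment (ENR, 3 mice), and the labels name no transgene or drug in either group. The comparison asks whether housing was accompanied by other methylation levels at these genes, and how promoter and gene body differ within each gene.

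When calcium enters a neuron it binds calmodulin, which switches on CaMKII at the synapse and the kinase kinases that in turn phosphorylate CaMK4. CaMK4 in the nucleus phosphorylates CREB at its activating serine, and phosphorylated CREB recruits the acetyltransferases CBP (Crebbp) and p300 (Ep300), while Crtc1 enters the nucleus as a separate coactivator. In the hippocampus this route is a textbook mechanism of long-term potentiation and of memory that lasts beyond hours.

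The dentate gyrus is mixed tissue, so a shift in the share of a cell type and a shift in methylation within a cell type cannot be told apart. The table holds no expression values, and markers of granule neurons were therefore not checked. Mean methylation over all sites of the table was 24.3%, 24.1% and 22.5% in STD mice 1 to 3 and 24.2%, 23.9% and 21.3% in ENR mice 1 to 3. ENR mouse 3 had the lowest value, followed by STD mouse 3. The number of reads behind a site is unknown beyond a minimum that the authors required, and a site is a cytosine on 1 strand.

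The stretches from 50 to 250 bases upstream of the Creb1 and Crebbp starts are printed in the orientation of the gene because they hold many measured CpGs close to a start, and capitals mark CpGs with a methylation value. Neither stretch overlaps an annotated exon.
Creb1, chr1:64532395-64532595 (mm10, plus strand): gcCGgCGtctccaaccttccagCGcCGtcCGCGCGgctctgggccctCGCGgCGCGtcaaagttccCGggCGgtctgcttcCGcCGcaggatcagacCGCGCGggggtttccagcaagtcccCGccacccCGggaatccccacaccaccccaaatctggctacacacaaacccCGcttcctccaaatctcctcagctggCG
Crebbp, chr16:4214047-4214247 (mm10, minus strand): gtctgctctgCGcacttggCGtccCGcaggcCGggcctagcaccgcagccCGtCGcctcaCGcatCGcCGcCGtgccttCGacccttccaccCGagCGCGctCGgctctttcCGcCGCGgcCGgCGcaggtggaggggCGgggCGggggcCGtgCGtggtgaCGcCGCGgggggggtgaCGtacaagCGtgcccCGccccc
The Creb1 stretch held 22 CpGs, 22 of them with a value, and 68.7% G and C. The Crebbp stretch held 31 CpGs, 30 of them with a value, and 77.6% G and C. Further stretches come from introns in the gene bodies, again with measured CpGs in capitals. The Camkk2 stretch and the first Camk2b stretch hold the clusters with the smallest p-values among those lower in ENR mice, and the distal Camk2b stretch holds the cluster of at least 3 sites with the widest range between the 6 mice.
Camkk2 intron, chr5:122773829-122773909 (mm10, minus strand): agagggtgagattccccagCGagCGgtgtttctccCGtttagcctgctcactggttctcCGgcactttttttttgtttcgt
Camk2b intron, chr11:6050136-6050282 (mm10, minus strand): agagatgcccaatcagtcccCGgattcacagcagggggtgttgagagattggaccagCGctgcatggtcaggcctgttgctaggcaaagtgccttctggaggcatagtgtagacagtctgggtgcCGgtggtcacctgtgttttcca
Camk2b distal intron, chr11:5987417-5987677 (mm10, minus strand): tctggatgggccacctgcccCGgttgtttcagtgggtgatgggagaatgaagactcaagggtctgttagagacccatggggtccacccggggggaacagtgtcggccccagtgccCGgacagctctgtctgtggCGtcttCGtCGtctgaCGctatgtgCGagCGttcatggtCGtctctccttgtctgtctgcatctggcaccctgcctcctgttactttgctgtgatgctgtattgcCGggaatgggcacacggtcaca
The Camkk2 stretch held 4 measured CpGs in 81 bases, the first Camk2b stretch 3 in 147 bases and the distal Camk2b stretch 10 in 261 bases.

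Promoters, defined as the 1 kb on either side of the gene start, were almost free of methylation in all 6 mice. They held 427 sites in 9 genes, of which 376 (88.1%) were island-like, meaning that the 201 bp around the site had at least 50% G and C and at least 0.6 of the CpGs its base composition predicts. The mean over these sites was 1.24% ± 0.191 (SD, n = 3) in STD mice and 1.28% ± 0.181 (SD, n = 3) in ENR mice. A value of 0% was listed in all 6 mice at 249 sites, and 422 sites had a mean under 10%.

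Creb1, the transcription factor on which the pathway converges, had the most densely sampled promoter, with 103 sites. Its mean methylation was 0.785%, 0.707% and 1.24% in the STD mice and 0.960%, 1.37% and 0.988% in the ENR mice. Its main cluster, 99 sites from chr1:64532397 to 64533227 covering upstream sequence, 5′ UTR and the first intron, had a mean of 0.996% over the 6 mice. The printed Creb1 stretch lies in this cluster. The promoter of Crebbp, which encodes the acetyltransferase CBP, held 83 sites with 0.819%, 1.09% and 0.408% in STD mice and 0.781%, 1.22% and 0.886% in ENR mice. The upstream cluster of 49 sites that contains the printed stretch (chr16:4213947-4214355) had a mean of 0.625%. Ep300, the gene of the paralogous acetyltransferase p300, had 1.18%, 1.19% and 0.982% in STD mice and 1.07%, 1.07% and 0.536% in ENR mice over 37 promoter sites. Some of its upstream sites also lie in the neighbouring gene 1110025M09Rik. For Crtc1, the CREB coactivator released by calcineurin, 21 upstream sites gave 2.81%, 1.63% and 1.53% in STD mice and 2.17%, 0.922% and 0.686% in ENR mice.

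Among the kinase kinases, which activate CaMK4 and CaMKI, the Camkk1 promoter (57 sites) had a mean of 1.60% ± 0.242 (SD, n = 6) and the Camkk2 promoter (50 sites) 1.56% ± 0.487 (SD, n = 6). The stretch of the 57 Camkk1 sites overlaps the gene record 4732414G09Rik. Within the Camkk2 promoter the 44 sites around the start (chr5:122779055-122779422) had a mean of 1.08%. Another 4 sites 0.663 kb upstream, which also lie in the gene record Gm43684, had 0.862%, 3.51% and 0.833% in STD mice and 0%, 12.7% and 11.0% in ENR mice. The groups overlapped there, since ENR mouse 1 had the lowest value of all, and the difference of 6.19 points had an interval of -1.30 to 13.7 (limma adjusted p = 1.00). It was 10.2 points without ENR mouse 1 and 3.79 without ENR mouse 2.

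The CaMKII genes encode subunits of the synaptic kinase holoenzyme, with Camk2a and Camk2b as its main forms in forebrain neurons. The Camk2b promoter had the lowest mean of all 9, 0.535% ± 0.648 (SD, n = 6) over 26 sites, which places it at the 1.25th percentile of promoter levels among protein-coding genes. It had 0 upstream sites. Its 26 sites belong to a cluster of 38 (chr11:6065272-6065595) that runs past the 1 kb limit and lies 1 bp from another Camk2b start. Camk2g had 1.30% ± 0.498 (SD, n = 6) over 42 sites, and the stretch of its 13 upstream sites overlaps the gene record Gm30108. The Camk2a promoter stood above the rest at 6.54% ± 5.04 (SD, n = 6), on 8 sites of which 3 were island-like. Its values were 4.52%, 6.26% and 6.23% in STD mice and 16.2%, 4.77% and 1.32% in ENR mice, so the highest and the lowest mouse were both ENR. Its 7 upstream sites, between 17 and 84 bases from the start, were at 16.2% in ENR mouse 1 and 0% in ENR mouse 3. For comparison, the median promoter of all protein-coding genes was at 1.64% (quartiles 1.22% and 2.94%).

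**Figure D1:**
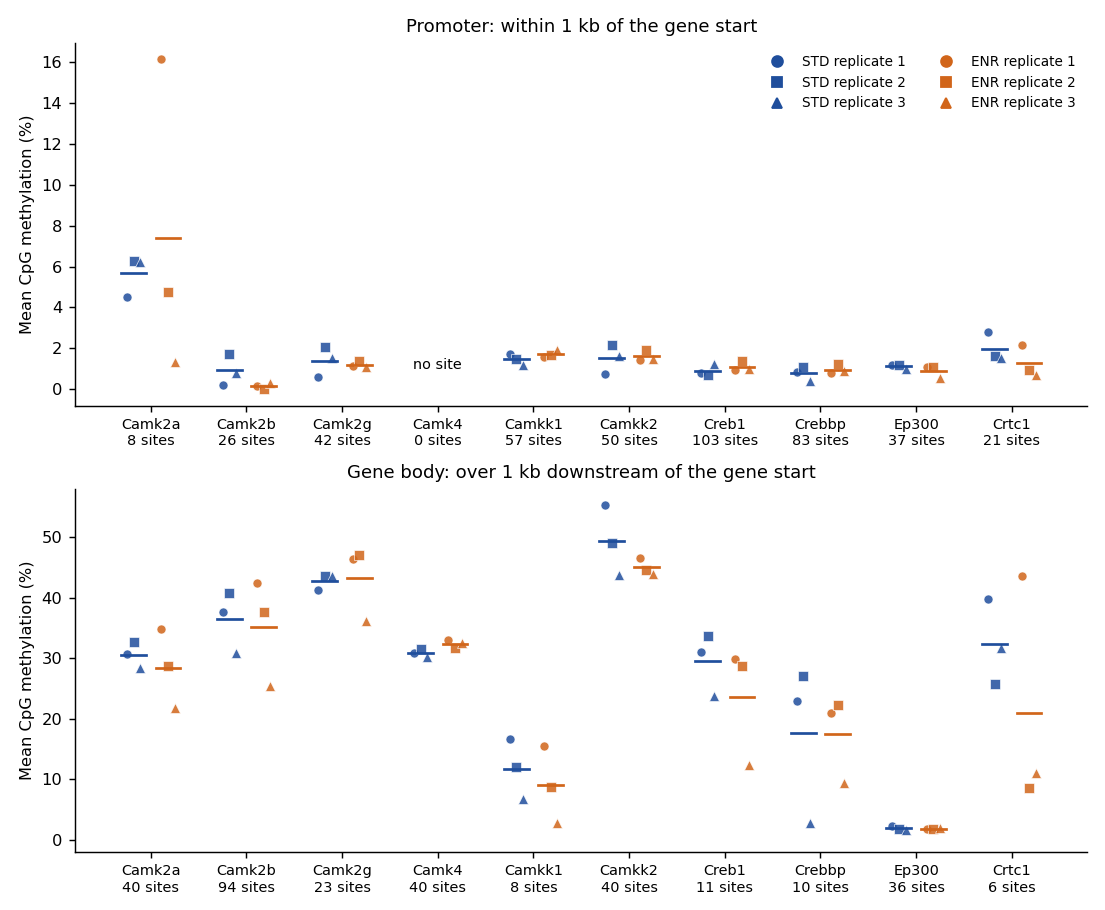
Mean CpG methylation in percent of promoter (top) and gene body (bottom) for each gene, with 1 point per mouse, the shape giving the replicate number and a bar at the group mean; the vertical scales differ between the panels. Promoters other than Camk2a stayed under 3% in every mouse, while gene bodies reached from 1.83% (Ep300) to 47.2% (Camkk2) on average.

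Gene bodies, running from 1 kb downstream of the start to the gene end, were far more methylated and far more variable. They held 308 sites, of which 109 (35.4%) were island-like, and their mean was 31.5% ± 3.13 (SD, n = 3) in STD mice and 29.9% ± 5.08 (SD, n = 3) in ENR mice. A mean between 10 and 90% was found at 170 body sites against 5 promoter sites, and a mean over 90% at 21 body sites against 0 promoter sites. Ordered by level over the 6 mice, the bodies ran from Camkk2 (47.2% ± 4.45) and Camk2g (43.0% ± 3.96) through Camk2b (35.8% ± 6.45), Camk4 (31.6% ± 1.02), Camk2a (29.5% ± 4.53), Crtc1 (26.7% ± 14.6) and Creb1 (26.5% ± 7.71) down to Crebbp (17.5% ± 9.40), Camkk1 (10.4% ± 5.31) and Ep300 (1.83% ± 0.265), all as mean ± SD with n = 6. Each neighbouring pair down to Crebbp and Camkk1 differed by less than the sum of its SDs, and Ep300 lay below Camkk1 by more than that sum. The median gene body of all protein-coding genes was at 43.1% (quartiles 17.0% and 74.3%), so Camk2g sat at the 49.9th and Ep300 at the 4.45th percentile. The measured Ep300 body consisted only of sites within 1 kb of another Ep300 start.

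Within each mouse the body was compared with the promoter of the same gene. The difference was tested with limma over 7997 genes, of which 86.0% had a more methylated body at an adjusted p under 0.05, and 8 of the 9 genes with both parts did so as well. With promoters around the gene start only, Camkk2 had the widest gap, 45.6 percentage points (SE 2.01, limma adjusted p = 1.69e-07). Camk2g came next with 41.7 points and Camk2b with 35.2 points. Creb1 followed with 25.5 points (95% interval 19.1 to 32.0), Crtc1 with 25.1, Camk2a with 22.9, Crebbp with 16.7 and Camkk1 with 8.77 points. Body exceeded promoter in 6 of 6 mice for all 9 genes. Ep300 was the exception to the test, at 0.819 points (95% interval -0.333 to 1.97, limma adjusted p = 0.148). Its 36 body sites all lay within 1 kb of another Ep300 start, so both of its parts sampled sites near starts. The count of 8 of 9 is near the share over all genes and shows nothing particular to this pathway.

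Body methylation differed between bins of distance from the start, which pool sites of different genes. Body sites 1 to 5 kb from the start had a mean of 3.67% (92 sites), those at 5 to 20 kb 33.2% (58 sites), those at 20 to 50 kb 53.9% (45 sites) and those beyond 50 kb 42.2% (113 sites). At 1 to 5 kb, 73 of the 92 sites were island-like, against 0 at 5 to 20 kb and 0 at 20 to 50 kb. This nearest bin held the 36 Ep300 body sites and 27 Camk4 sites near further starts of these genes. Introns had a mean of 38.6% (188 sites), coding exons 25.9% (53 sites), 3′ UTRs 41.7% (17 sites) and 5′ UTRs inside the bodies 1.40% (33 sites). The coding exons include 10 Camk4 sites at 0.769% and 6 Ep300 sites at 1.48%. Many of these genes have further transcript starts inside the body. Island-like body sites within 1 kb of another start of the same gene had a mean of 1.31% (73 sites), against 31.3% for island-like sites farther away (36 sites). Sites that were not island-like had 35.9% near another start (27 sites) and 42.2% away from one (172 sites).

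**Figure D2:**
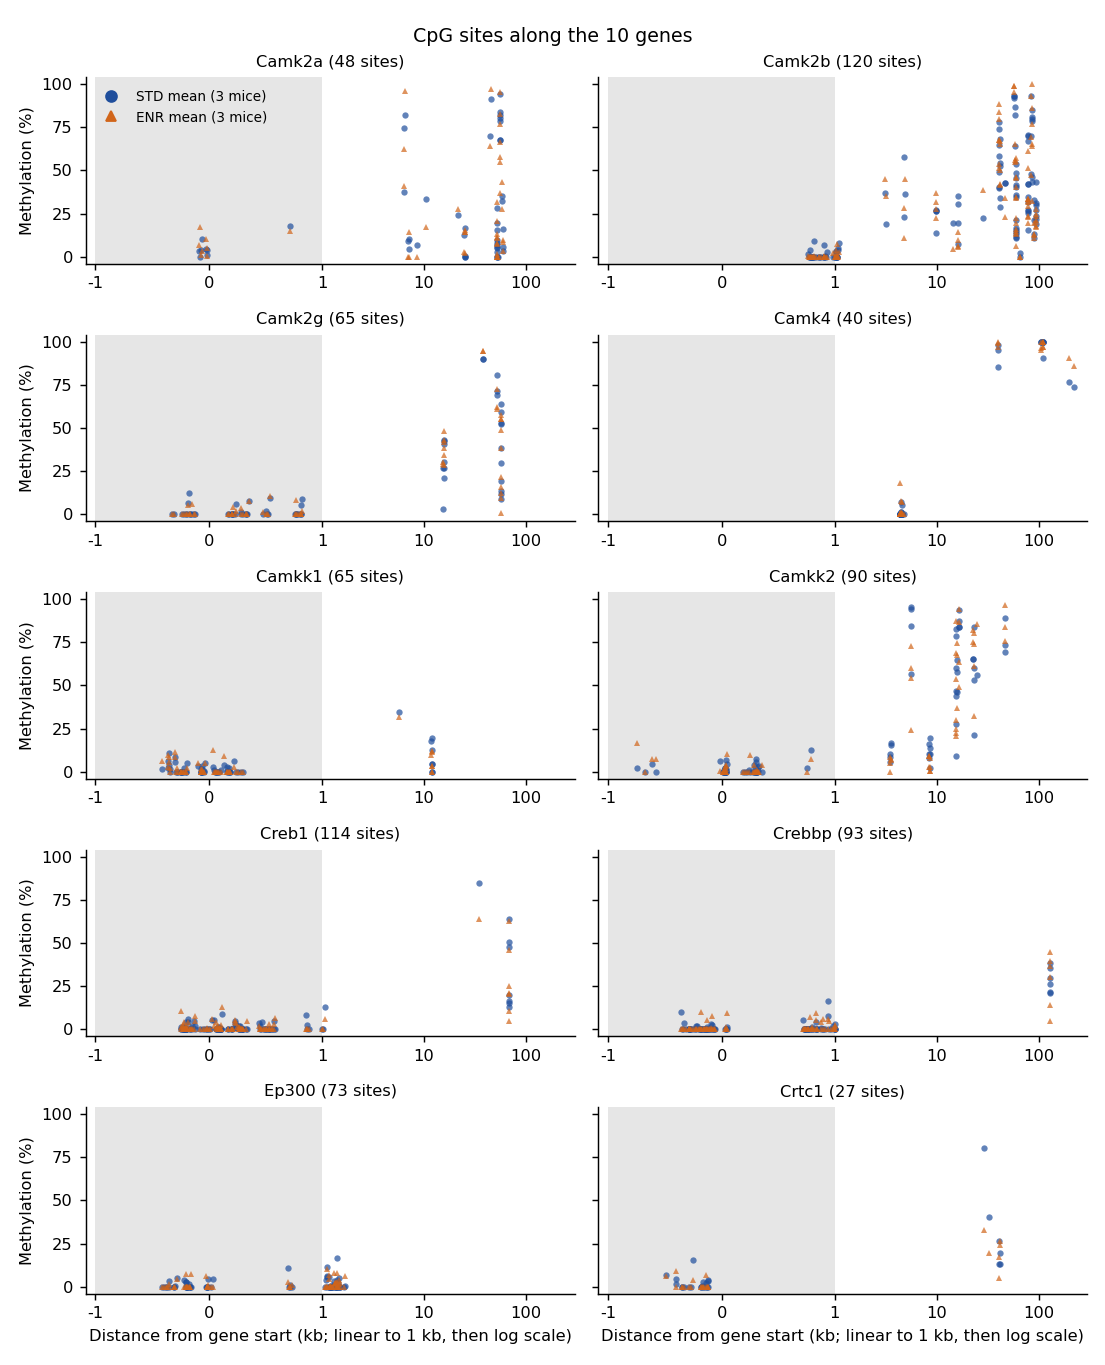
Methylation in percent of each CpG site against its distance from the gene start in kb (linear within 1 kb, log scale beyond), for the 10 genes, with blue circles for the mean of 3 STD mice and orange triangles for the mean of 3 ENR mice; grey marks the promoter. In the grey band 422 of 427 sites lie under 10%, Camk4 has none there, and Ep300 has no body site past 2 kb.

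The whole measured body of Ep300 was 1 cluster of 36 sites (chr15:81586418-81587023), 1.37 kb from the start of the gene record and 198 bp from another Ep300 start, in 5′ UTR, coding and noncoding exon. It was at 1.83%, and no site farther into the gene was measured. Camk4, the nuclear kinase that phosphorylates CREB, had no measured site within 1 kb of its gene record start on chromosome 18. Instead 26 island-like sites 4.44 kb downstream (5′ UTR and coding exon, chr18:32939271-32939473), 113 bp from a further Camk4 start, were at 0.990%. The 14 intronic sites of Camk4 were at 86.9%, 89.0% and 85.2% in STD mice and 90.3%, 90.4% and 88.8% in ENR mice. Camk4 thus held both nearly unmethylated and nearly fully methylated sites, with 2 sites of 40 between 10 and 90%. When the promoter was taken around every transcript start, Camk4 had a promoter of 0.954% (27 sites) and a body of 95.2% (13 sites). All 73 Ep300 sites then counted as promoter, so Ep300 had no body and was not compared. The 9 genes with both parts, Camk4 now included, all had a more methylated body at a limma adjusted p under 0.05. So did 6953 of 7542 genes in the whole table. The gaps then ran in another order, with 94.3 points in Camk4, 41.7 in Camk2g, 34.9 in Camk2b, 34.2 in Creb1 and 30.2 in Camkk2.

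Among clusters of at least 3 sites, the most methylated lay deep in the gene for most members. In Camk2a it was an intronic cluster of 7 sites 55.6 kb from the start, at 82.5%, 76.3% and 78.8% in STD mice and 79.9%, 64.2% and 58.0% in ENR mice. Camk2g had its highest cluster in 3 coding-exon sites at 52.6 kb, with a mean of 69.4% ± 13.7 (SD, n = 6), and Camkk2 in 3 sites of the 3′ UTR at 46.4 kb, with 81.3% ± 11.2 (SD, n = 6). STD mouse 3 was the lowest mouse in the Camkk2 cluster, at 59.0%. In Camk4 the highest cluster (3 intronic sites at 106 kb) was at 98.4% ± 2.26 (SD, n = 6). Camkk1, by contrast, reached a mean of only 7.12% in its highest cluster, 7 sites at 12.0 kb. The Creb1 maximum was the 3′ UTR cluster of 7 sites at 68.1 kb with 29.8% ± 9.36 (SD, n = 6), and that of Crtc1 was 4 sites at 41.2 kb with 18.3% ± 11.4 (SD, n = 6).

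Internal starts of Camkk2 and Camk2b were not all unmethylated. With promoters around every transcript start, the Camkk2 value was 12.8% (63 sites) and that of Camk2b 5.73% (43 sites). The Camkk2 cluster of 10 sites at chr5:122763766-122764166, mostly coding exon and 82 bp from an internal start, was at 50.2% ± 7.23 (SD, n = 6).

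No promoter of these genes differed between ENR and STD mice by more than the spread between mice. Of 9 promoters, 0 passed an adjusted p under 0.05 in limma and 0 an unadjusted p under 0.05, against 0.0% and 4.51% of 13204 promoters tested. ENR means were lower at 4 promoters and higher at 5, where 51.9% of all promoters were lower, and the groups overlapped at all 9, where 9.55% of all promoters had groups that did not overlap. The smallest p belonged to Camk2b, with 0.225%, 1.74% and 0.786% in STD mice and 0.139%, 0% and 0.321% in ENR mice, a difference of -0.764 points (95% interval -1.64 to 0.113, limma adjusted p = 0.981) that was -0.353 points without STD mouse 2. For Creb1 the interval of the difference was -0.568 to 0.955 points and for Crebbp -0.535 to 0.910 points. Those of Camkk1 (-0.734 to 1.23), Camkk2 (-1.06 to 1.30), Camk2g (-1.31 to 0.906) and Ep300 (-0.973 to 0.517) were of similar width. The Camk2a interval, -6.05 to 9.54 points, was much wider.

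Whole genes and gene bodies gave the same count. Of 10 whole genes 0 passed either threshold, against 0.0% adjusted and 3.58% unadjusted of 16108 genes. Of 10 gene bodies 0 passed, against 0.0% adjusted and 3.24% unadjusted of 10843 bodies. Body means were lower in ENR mice for 8 genes and higher for 2, with a median difference of -1.73 points, where 60.9% of all bodies were lower and the median was -0.579 points. The direction rested partly on ENR mouse 3, which was the lowest of the 6 mice in 5 bodies, STD mouse 3 being lowest in another 4. Without ENR mouse 3, the differences of Camk2a, Camk2b, Camkk1 and Crebbp were above 0, at 1.19, 3.57, 0.325 and 4.07 points.

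Crtc1 had the largest body difference, on 6 sites. Its body was at 39.8%, 25.7% and 31.6% in STD mice and 43.5%, 8.45% and 11.0% in ENR mice. Mice 2 and 3 of the ENR group were below all STD mice and ENR mouse 1 was above them, and the difference of -11.4 points had an interval of -34.4 to 11.7 (limma adjusted p = 1.00). It was -22.7 points without ENR mouse 1, -5.12 without ENR mouse 2 and -6.40 without ENR mouse 3. The Creb1 body, 11 sites of which 7 lie in the 3′ UTR, was at 31.0%, 33.6% and 23.8% in STD mice and 29.9%, 28.7% and 12.3% in ENR mice. Its difference of -5.87 points was -0.198 points without ENR mouse 3. In the body of Crebbp a cluster of 6 coding-exon sites (chr16:4085594-4085768) was at 36.7%, 45.1% and 4.48% in STD mice and 35.0%, 34.8% and 15.6% in ENR mice. Mouse 3 was the lowest of its group in both, and STD mouse 3 was the lowest of all.

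Camk4 was the one gene whose groups did not overlap, with 30.9%, 31.5% and 30.1% in STD mice and 33.0%, 31.7% and 32.4% in ENR mice over 40 sites. Groups did not overlap in 7.49% of all gene bodies and 8.24% of all whole genes. The difference of 1.51 points had an interval of -4.01 to 7.03 (limma adjusted p = 1.00). The groups overlapped in its 14 intronic sites and in its body taken over 1 kb from every transcript start. The Camkk2 body was at 55.3%, 49.0% and 43.7% in STD mice and 46.5%, 44.6% and 43.9% in ENR mice, and the groups overlapped. The gap between body and promoter did not differ between housing groups either, with 0 of 9 genes at an adjusted or unadjusted p under 0.05, against 0.0% and 3.48% of 7997 genes.

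**Figure D3:**
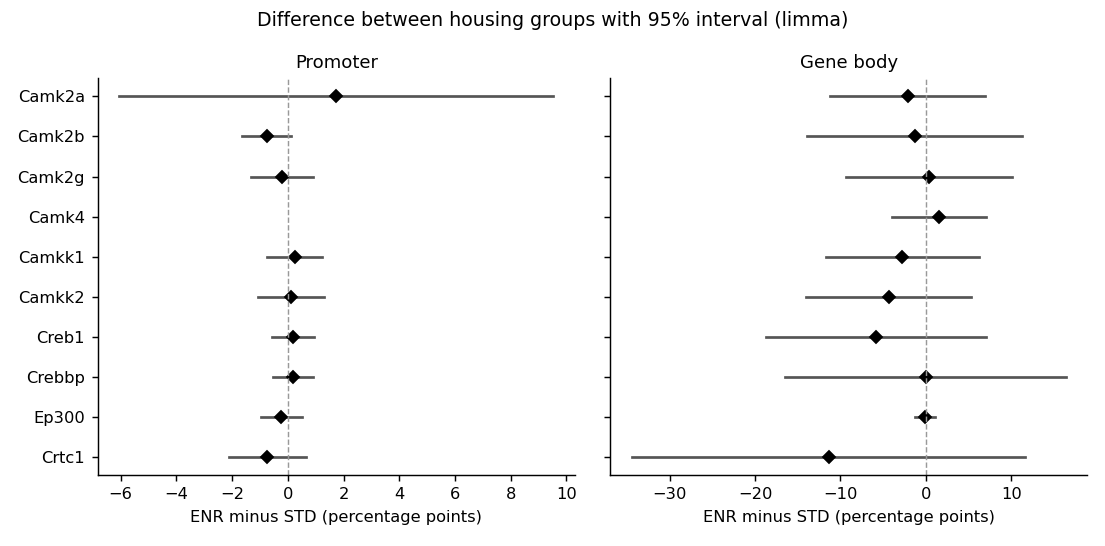
Difference in mean CpG methylation, ENR minus STD, in percentage points for promoter (left) and gene body (right) of each gene, as the limma estimate (diamond) with its 95% interval (line); the horizontal scales differ. All intervals include 0, and among the bodies they run from Ep300 (-1.23 to 1.09), the narrowest, to Crtc1 (-34.4 to 11.7), the widest.

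Sites within 200 bp of each other were averaged as clusters, since RRBS fragments read neighbouring CpGs together. The genes held 78 clusters, 55 of them with at least 3 sites. None of the 55 passed an adjusted p under 0.05 in limma (0.0% of 71381 clusters did), 5 had an unadjusted p under 0.05 (9.09%, against 4.0% of all clusters) and 6 had groups that did not overlap (10.9%, against 8.81%). Camkk2 held 3 of these 5 and 3 of these 6. ENR means were lower in 31 clusters and higher in 24, where 54.9% of all clusters were lower.

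An intron of Camkk2 held the cluster with the smallest p, 4 sites 5.54 kb from the start (chr5:122773849-122773889, the printed Camkk2 stretch). It was at 93.5%, 68.1% and 86.4% in STD mice and 49.3%, 65.6% and 43.4% in ENR mice. The groups did not overlap, but STD mouse 2 and ENR mouse 2 were only a few points apart. The difference was -29.9 points (95% interval -51.0 to -8.74, limma unadjusted p = 0.0123, adjusted p = 1.00). All 4 sites were lower in ENR mice and lie on the same strand within 41 bases, so they are not independent measurements. An intron cluster of Camk2b 16.2 kb from the start (chr11:6050156-6050262, 4 sites, the first printed Camk2b stretch) was at 16.4%, 30.7% and 23.3% in STD mice and 12.9%, 6.92% and 7.22% in ENR mice. Every STD value lay above every ENR value, with a difference of -14.4 points (95% interval -24.8 to -4.06, limma adjusted p = 1.00). A second Camkk2 intron cluster at 16.5 kb (chr5:122762846-122762876, 4 sites) was at 88.1%, 90.1% and 83.4% in STD mice and 66.1%, 79.2% and 75% in ENR mice. The groups were again apart, by -13.8 points on average (95% interval -24.4 to -3.09, limma adjusted p = 1.00).

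Of the clusters higher in ENR mice, those with the smallest p were in Camk4, Camk2b and the Camkk2 upstream sites given above. A Camk4 intron cluster at 39.6 kb (3 sites, chr18:32974474-32974504) was at 94.1%, 91.9% and 92.3% in STD mice and 99.3%, 100% and 97.0% in ENR mice, a difference of 6.01 points (95% interval 1.37 to 10.6, limma adjusted p = 1.00). A Camk2b intron cluster at 56.8 kb (3 sites, chr11:6009562-6009584) was at 92.2%, 92.2% and 94.3% in STD mice and 98.2%, 95.1% and 100% in ENR mice, a difference of 4.89 points whose interval of -0.223 to 9.999 included 0. Both clusters were almost fully methylated in every mouse and did not overlap between groups.

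Among clusters of at least 3 sites, the widest range between mice was in the distal intron cluster of Camk2b, 78.8 kb from the start (chr11:5987437-5987657, 11 sites, 8 of them island-like), which was chosen after its values were seen. It was at 49.9%, 37.4% and 36.1% in STD mice and 72.8%, 16.9% and 11.9% in ENR mice. The ENR group alone spanned the full range of 60.9 points, and the STD mice lay inside it. Its sequence is the distal Camk2b stretch printed above. Another Camk2b cluster of 3 sites at chr11:6007826-6007894 had the same order of the ENR mice, at 88.7%, 88.9% and 55.1% in STD mice and 92.5%, 47.0% and 36.5% in ENR mice.

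**Figure D4:**
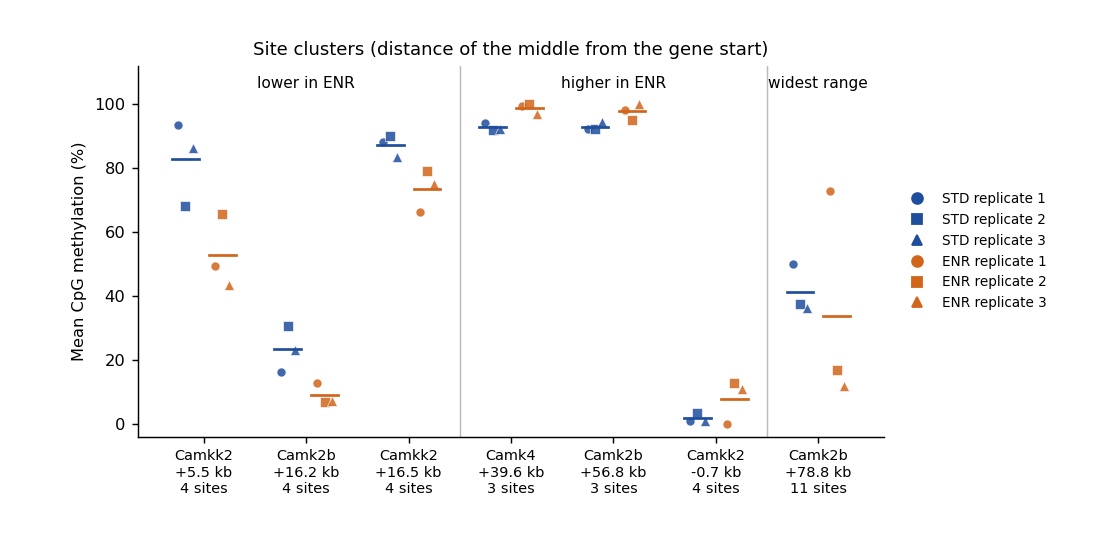
Mean CpG methylation in percent of 7 intronic or upstream site clusters in the 6 mice (blue STD, orange ENR, bars at group means), labelled by gene, distance of the cluster's middle from the gene start and number of sites. The first 3 clusters are lower in ENR mice without overlap, the next 3 are higher with overlap in the upstream Camkk2 cluster, and the last, in Camk2b, spans 11.9 to 72.8% within the ENR group.

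At single sites, group means differed by more than 25 percentage points at 18 of the 735 sites (2.45%, against 1.94% of all sites), 15 lower in ENR mice (1.23% of all sites were) and 3 higher (0.706% of all sites were). All 18 lay in gene bodies, 7 of them in Camk2b, 6 in Camkk2, 2 in Camk2a and 1 each in Camk2g, Creb1 and Crtc1. Among the 175 sites with a mean between 10 and 90%, 10.3% passed this size, against 7.7% of such sites in the whole table. Without ENR mouse 3 the count was 23, with 9 lower and 14 higher, and without ENR mouse 1 it was 28, with 25 lower and 3 higher, so the balance of lower and higher sites depended on single ENR mice. In limma 0 of 439 tested sites passed an adjusted p under 0.05 (0.0% of 615152 did) and 15 had an unadjusted p under 0.05, against 2.68% of all sites. At 8 of the 18 sites every mouse of one group lay above every mouse of the other, as at 7209 of the 17268 sites of this size in the whole table. Size without overlap was thus met at 8 of the 735 sites, against 0.81% of all sites.

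Of these 8 sites, 3 lower in ENR mice are described first, 1 in each of 3 genes. A Camkk2 intron site (chr5:122773889), the end of the cluster described above, was at 100%, 86.3% and 100% in STD mice and 45.7%, 70.8% and 63.2% in ENR mice (limma adjusted p = 0.852). Its 3 neighbours within 100 bp were lower by 28.0 points on average. A site in the Creb1 3′ UTR (chr1:64600730) was at 55.0%, 70.6% and 65.7% in STD mice and 28.6%, 34.4% and 0% in ENR mice, the largest of these differences at -42.8 points. Its 4 neighbours within 100 bp did not move with it, with 2 lower, 2 not lower and a mean difference of 0.107 points. A Camk2b intron site (chr11:6050224) in the cluster at 16.2 kb was at 26.6%, 42.6% and 37.1% in STD mice and 22.6%, 0% and 5.88% in ENR mice, and the interval of its difference, -55.2 to 3.35 points, included 0.

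Higher in ENR mice without overlap were a Camkk2 intron site (chr5:122754823) and a Camk2b intron site (chr11:6025316). The Camkk2 site was at 54.8%, 42.4% and 70.6% in STD mice and 74.1%, 85.7% and 96.4% in ENR mice, with no measured neighbour within 100 bp. The Camk2b site was at 56.98%, 57.1% and 33.3% in STD mice and 85.7%, 89.1% and 63.6% in ENR mice, and 5 of its 6 neighbours were higher as well. Both had a limma adjusted p of 0.852. At the 18 CpGs measured on both strands with 10 to 90% methylation, the strands of a mouse differed by a median of 14.8 points.

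CREB binds the palindrome TGACGTCA and its shorter form TGACG, and the CpG in these motifs can be read directly. TGACG, searched on both strands and counting its occurrences within TGACGTCA, held 16 of the 735 sites. Their mean methylation was 15.8% ± 3.97 (SD, n = 6), against 24.8% for 11950 such sites in the whole table, and all 735 sites of the 10 genes were at 13.6%. The 10 in promoters were at 1.00% ± 1.11 (SD, n = 6) and the 6 in bodies at 40.6% ± 10.2 (SD, n = 6). Creb1 itself had 6 such sites at 0.206% and Crebbp 3 at 0.427%, in all mice under 3%. The printed Creb1 stretch holds TGACG 1 time and the Crebbp stretch 2 times, counting both strands. TGACGTCA held none of the 735 sites and 416 sites in the whole table, whose mean methylation was 11.3%. In the RefSeq promoter windows from 250 bases before to 50 after the start (GRCm38), matched for 7 of the 10 genes, TGACG occurred in 1, that of Camkk1, and in 20.8% of 32851 windows. The RefSeq starts lie 159 bases (Creb1) and 593 bases (Crebbp) downstream of the GENCODE gene record starts, and their windows do not hold the motifs of the printed stretches. These matches are letters in a sequence and not binding sites.

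Other genes of calcium and cAMP signalling to CREB, 45 in number from calmodulins and adenylyl cyclases to the kinase Prkaca and the CREB relatives Crem and Atf1, were counted in the same fits. Of the 43 that could be tested as whole genes, 25 were lower and 18 higher in ENR mice, where 58.4% of all genes were lower. In limma 0 had an adjusted or unadjusted p under 0.05, against 0.0% and 3.58% of all genes, and the median difference was -0.195 points against -0.194 over all genes. At 40 promoters the counts were 15 lower and 25 higher, where 51.9% of all promoters were lower, with 2 at an unadjusted p under 0.05 against 4.51% of all. At 32 bodies 22 were lower and 10 higher, where 60.9% of all bodies were lower, with 2 at an unadjusted p under 0.05 against 3.24% of all. None passed an adjusted p under 0.05. Camkv, which encodes a vesicle-associated kinase-like protein that binds calmodulin, was at 13.5%, 12.0% and 10.7% in STD mice and 11.3%, 9.15% and 8.82% in ENR mice. Crtc2, a paralogue of Crtc1, was at 2.20%, 1.69% and 1.29% in STD mice and 0.591%, 1.51% and 0.756% in ENR mice. Both had overlapping groups. Camk2n1, an inhibitor of CaMKII, was at 1.67%, 1.55% and 1.86% in STD mice and 2.95%, 2.74% and 1.77% in ENR mice. Atf2, a transcription factor that binds CRE-like sequences, was at 3.01%, 1.66% and 1.38% in STD mice and 2.999%, 3.997% and 2.11% in ENR mice. All 4 differences had a limma adjusted p of 1.00.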

How the data were processed

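The deposited table gives, for each CpG site and mouse, its methylation as a percent of the reads on that site, as calculated by the authors. Per the submitters' processing notes, the tools were Trim Galore 0.4.0 with cutadapt 1.8.1, Bismark 0.16.1 and methylKit 1.5.2, on mm10. The study's methods, which describe trimming, alignment and a filter on coverage with these tools, name other versions of Trim Galore and Bismark, so which versions made the table is uncertain. Read numbers were not in the values used here, so the study's read-based test was not run and each site weighed the same whatever its depth. The genes and lists were chosen with earlier results of these data known. Sites were averaged per mouse over the whole gene, promoter, body or cluster, with at least 3 sites, and fitted with limma 3.58.1 in R 4.3.3 (lmFit, eBayes with variance trend) on the percent scale over all protein-coding genes, clusters or varying sites, with Benjamini-Hochberg adjustment. The fits were tested on simulated data. All 10 genes were named. Sites were named by the 3 smallest p in each direction among those over 25 points apart without overlap (at most 1 per gene, which left 2 higher), clusters by the 3 smallest p in each direction, and pathway genes by the 2 smallest. Each mouse was a separate animal. Deviations from the group means of whole genes correlated between same-numbered mice (r = 0.175, 0.147 and 0.339), those of single sites less (0.0552, 0.0319 and 0.125). STD mouse 1 with ENR mouse 2 (0.134) and STD mouse 2 with ENR mouse 1 (0.0998) came near the first 2 of these values in whole genes. The remaining pairs, each of a mouse 3 with a mouse of another number, were negative (-0.240 to -0.193). Nothing in the labels ties the numbers to a litter or day. At 20 sites the reference base pair was not a CpG. Alternatives were an arcsine scale, no variance trend, medians, merged strands, other site minimums, quantile normalization, other promoter definitions, a replicate block and leaving out each mouse.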

Additional observations from a re-analysis of the deposited data

How the results depend on the processing

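Over the named genes, clusters and sites, 14 values under other settings and 36 with 1 mouse left out changed direction, and none of the 10 genes was called for housing. Where groups do not overlap, as at most named clusters and all named sites, leaving out a mouse cannot change the direction. With the replicate block the count of genes called stayed at 0 for whole genes, promoters and bodies, and the pairing changed no other call. Elsewhere in the genome, 1 whole gene and 1 promoter were called without ENR replicate 3, 1 promoter each on the arcsine scale and without a variance trend, and 1 body-minus-promoter difference without STD replicate 3, so those counts ranged from 0 to 1. The number of sites over the size limit was 30 at 20 points and 2 at 40 points, and 21 to 28 with 1 mouse left out. These signs turned under another setting. Whole genes: Camk2g gave -0.000412 (arcsine units), Camkk1 0.362 under quantile normalization, and Ep300 0.000835 with merged strands and 0.164 under quantile normalization. The Camkk2 promoter gave -0.268 at 500 bp and -0.495 around every transcript start. Bodies: Camk2g gave -0.939 by medians, Crebbp 0.0223 (arcsine units), 0.902 (merged strands), 1.22 (quantile normalization) and 0.133 (500 bp promoter), and Ep300 0.262 (merged strands) and 0.410 (quantile normalization). Body minus promoter of Ep300 gave -0.249 at 500 bp. Leaving out 1 mouse moved the whole-gene difference of Camk2a from -4.91 to 1.79, Camk2b from -4.06 to 2.61, Camk2g from -0.746 to 1.29, Camkk1 from -0.558 to 0.293, Creb1 from -0.753 to 0.208 and Crebbp from -0.797 to 0.819, the promoter difference of Camk2a from -2.63 to 4.79, Camk2g from -0.604 to 0.138 and Camkk2 from -0.270 to 0.433, the body difference of Camk2a from -5.37 to 1.19, Camk2b from -4.98 to 3.57, Camk2g from -1.57 to 3.90, Camkk1 from -5.99 to 0.325, Crebbp from -7.45 to 4.73 and Ep300 from -0.230 to 0.138, and body minus promoter of Camk2b from -4.22 to 4.42, Camk2g from -1.28 to 4.04, Camkk1 from -6.30 to 0.173, Crebbp from -7.46 to 4.39 and Ep300 from -0.119 to 0.334. The cause was not tested. With 3 mice in each group and unknown depth per site, the intervals printed with the results set what could be seen.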
